A study of Mus musculus with 12 samples.

Results

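LPS was compared with PBS in wild-type mice across all genes that could be tested, in 6 of the 12 libraries of the series. The members of the comparison are the 3 wild-type PBS libraries and the 3 wild-type LPS libraries, taken by their labels. The mice were C57BL/6J with no engineered allele, and they received an intraperitoneal injection of PBS, the salt buffer that serves as control, or of LPS, the lipopolysaccharide of the outer bacterial membrane. RNA came from the cells of the peritoneal lavage, so each library holds whatever mixture of resident and recruited cells was washed out. The other 6 libraries, from mice without lactoferrin, entered the fit as 2 further groups of 3 and are otherwise used only for the test of a difference in response. The sources used here do not give dose, time after injection, sex or age. The labels do not say that the 3 libraries of a group came from separate mice, so the p-values measure the spread between libraries, which may be technical.

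LPS is sensed by macrophages and other myeloid cells through Tlr4, with Cd14 and Ly96 as partners. The receptor signals through Myd88 towards NF-kB and MAP kinases and through Ticam1 and Ticam2 towards interferon regulatory factors, and the response includes its own inhibitors. The resting peritoneal cavity holds large resident macrophages, B cells, mast cells and some monocytes, and an inflammatory stimulus changes both the activity of these cells and which cells are present.

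Values are FPKM, fragments per kilobase of transcript and per fragments sequenced, scaled to a common total, as the authors deposited them; the files do not name the unit, and it was read from the values and the tools listed. The number of reads behind a library is unknown. A fold change is the difference of group means (3 libraries a group) on the scale log2(FPKM + 1), written as the value ± its standard error. The fold change understates the change of genes of low level. The standard error comes from the fit of all 12 libraries, with variances moderated over genes. It is not the spread of the 6 wild-type libraries alone. A gene was called when its p-value in limma, adjusted by Benjamini and Hochberg over all genes tested, was under 0.05. Each library summed to between 350263 and 382682 FPKM, with 14003 to 14333 genes above 0. The first principal component of the 6 libraries held 81.6% of the variance and separated LPS from PBS, and the second, with 9.86%, set wild-type PBS replicate 3 (-27.1) apart from PBS replicates 1 (7.93) and 2 (25.5), while the LPS libraries lay between -3.89 and 0.10.

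Of 9841 genes tested, 2443 were higher with LPS (24.8%) and 3680 were lower (37.4%). The median change over all of them was -0.11. With libraries scaled by their median of ratios it became -0.004, and 3054 genes were then called higher against 3108 lower. Small falls are therefore to be read against that shift. All 3 LPS libraries lay above all 3 PBS libraries in 2680 genes (27.2%) and below them in 3830 (38.9%). The balance depended on the level of the gene. Among 3197 genes with a mean of 1 to 5 FPKM, 13.9% were higher and 45.2% lower, while among 2139 genes of 20 to 100 FPKM, 37.8% were higher and 29.3% lower. Changes of at least 2 on the log2 scale were found in 116 higher and 291 lower genes. Genes called higher made up 20.4% of the summed FPKM in the PBS libraries and 40.5% in the LPS libraries, and genes called lower went from 34.8% to 15.9%, means of 3 libraries each.

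**Figure D1:**
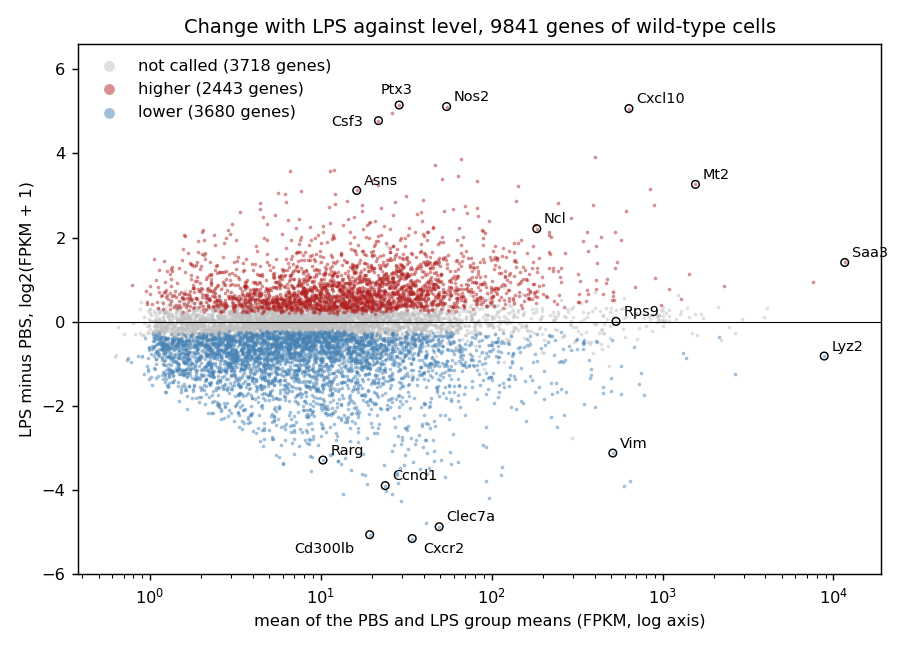
Change with LPS (vertical axis, LPS minus PBS in log2(FPKM + 1)) against level (horizontal axis, mean of the PBS and LPS group means in FPKM, log axis) for the 9841 genes tested in wild-type cells, each point a gene, coloured by its limma call (2443 higher, 3680 lower). Ptx3 (5.15), Nos2 (5.11), Cxcl10 (5.07) and Csf3 (4.78) lie at the top, Cxcr2 (-5.15), Cd300lb (-5.06) and Clec7a (-4.87) at the bottom, and Rps9 near the zero line.

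Markers of several cell types moved with treatment, and the results below come from the same mixture. Over all genes tested, 37.4% were called lower and 24.8% higher. Of the PBS libraries, replicate 3 also stood apart on the second component, and without it 2255 genes were called higher and 3529 lower. Summed over 10 mature neutrophil markers the level was 3457, 2983 and 2182 (PBS) and 192, 276 and 306 (LPS) FPKM, and 9 of the 10 were called lower. Of 8 inflammatory monocyte markers 7 were called lower, with a summed level of 2046, 1959 and 2690 (PBS) and 1297, 881 and 1026 (LPS) FPKM. Most of that sum was Fn1. Fn1 took 0.4237%, 0.3234% and 0.6484% (PBS) and 0.3279%, 0.2028% and 0.2561% (LPS) of all FPKM. The list took 0.5832%, 0.5593% and 0.7369% (PBS) and 0.3588%, 0.2303% and 0.2875% (LPS). The call of Fn1 was lost under several alternatives, among them without PBS replicate 3 (-0.46). Large peritoneal macrophage markers had 4 of 10 called lower and 1 higher (40% and 10%), the share lower near that over all genes. Their median change was -0.89, and their sum was 1417, 1459 and 2703 (PBS) and 1625, 1223 and 1186 (LPS) FPKM. B cell markers summed to 1139, 553 and 1159 (PBS) and 299, 281 and 394 (LPS) FPKM with 5 of 8 called lower (62.5%). T cell markers summed to 34.96, 48.3 and 39.4 (PBS) and 15.6, 13.6 and 13.6 (LPS) FPKM with all 7 tested members called lower. Mast cell markers, at 808, 478 and 880 (PBS) and 836, 832 and 825 (LPS) FPKM, overlapped between the groups, with 2 of 7 called higher and 1 lower (28.6% and 14.3%). Natural killer (4 tested), eosinophil (1), dendritic cell and small macrophage (4) and platelet markers (2) had few members above the minimum level, and none of the 6 mesothelial markers reached it. The dendritic cell and small macrophage markers summed to 58.3, 49.1 and 62.9 (PBS) and 72.3, 94.1 and 97.95 (LPS) FPKM, every LPS library above every PBS library, with Irf4, also an inducible transcription factor, called higher (24.96 to 64.9 FPKM) and Itgax and Mgl2 called lower. Eosinophil markers summed to 8.695, 9.29 and 14.4 (PBS) and 2.02, 1.74 and 3.23 (LPS) FPKM, every LPS library below every PBS library, with Il5ra, the tested member, called lower. Natural killer markers, at 23.8, 33.4 and 11.5 (PBS) and 13.7, 17.7 and 20.6 (LPS) FPKM, and platelet markers, at 906, 840 and 1140 (PBS) and 1024, 1223 and 934 (LPS) FPKM, overlapped between the groups. Epx, which defines eosinophils, was listed at 0 in all 6 libraries. Erythroid markers summed to 31.1, 330 and 31.5 (PBS) and 8.22, 2229 and 7.04 (LPS) FPKM, highest in wild-type LPS replicate 2 and next in PBS replicate 2, and none of the 5 tested was called. In these bulk samples fewer cells of a type and less RNA per cell cannot be told apart, and the part that cell mixture has in the gene lists below was not tested.

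**Figure D2:**
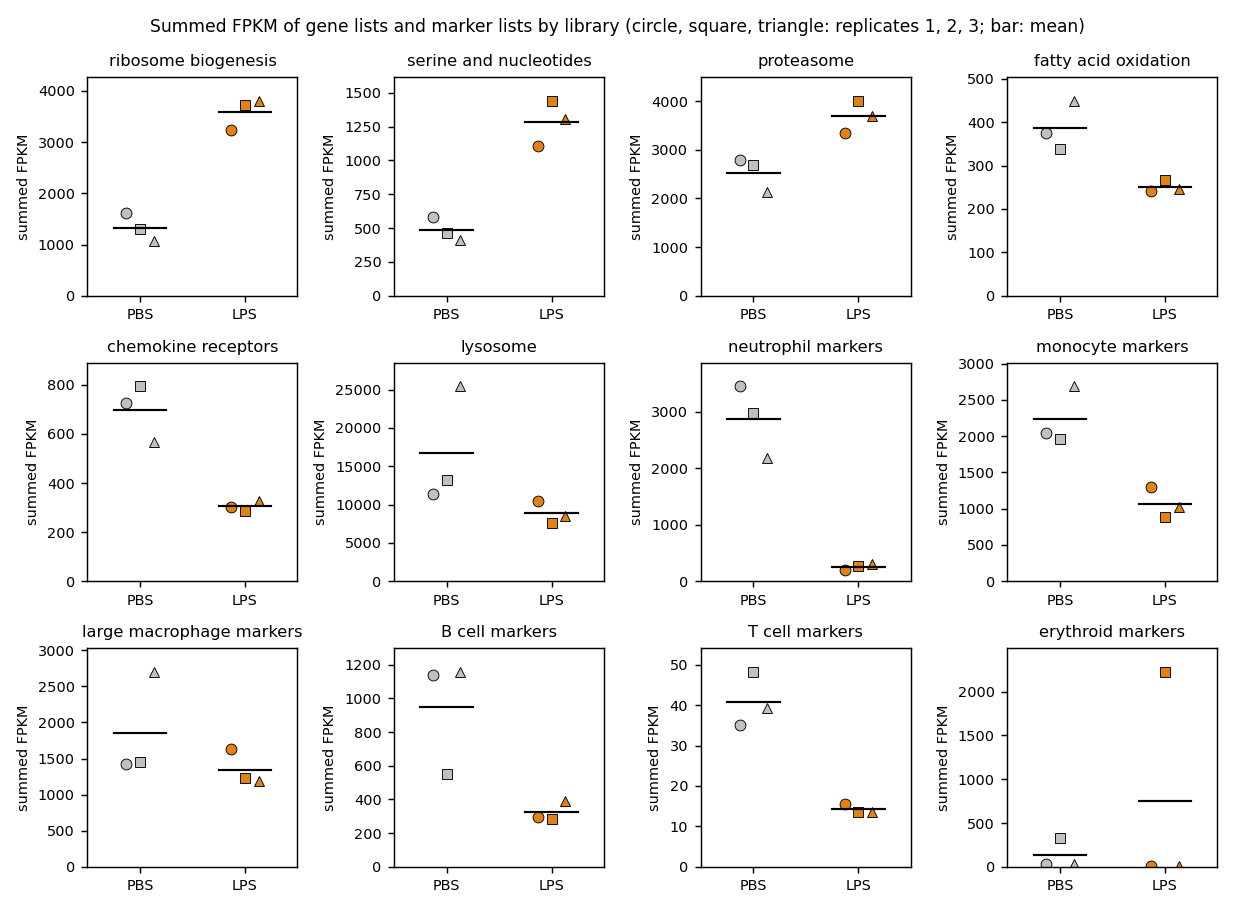
Summed FPKM (vertical axes, each from 0) of 6 pathway lists and 6 cell type marker lists in the 3 PBS and 3 LPS wild-type libraries, with symbols for replicates 1 to 3 and a bar for the mean of a group. Ribosome biogenesis rises from a mean of 1329 to 3593 FPKM, neutrophil markers fall from 2874 to 258 FPKM, and PBS replicate 3 is the highest of the 6 for the lysosome and the large macrophage markers. Lyz2 alone makes up most of the lysosome sum, and Fn1 most of the monocyte marker sum.

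Among the 20 largest rises and the 20 largest falls were genes outside the lists described below. Only genes whose groups did not overlap could be picked, so the separation of these genes follows from the rule. Lipg, endothelial lipase, was at 4.33, 2.12 and 2.02 FPKM with PBS and 39.3, 31.2 and 40.7 FPKM with LPS (3.36 ± 0.29, adjusted p = 5.19e-06 by limma). Mfsd2a, a carrier of lysophospholipids, went from 1.13, 0.6705 and 0.553 FPKM to 10.8, 15.7 and 17.1 FPKM (3.11 ± 0.24). Prok2, a secreted prokineticin, was at 27.8, 10.3 and 1.95 FPKM with PBS and 161, 100 and 78.04 FPKM with LPS, a change of 3.47 ± 0.64 that was 4.24 without PBS replicate 1 and 2.60 without PBS replicate 3. The PBS libraries of Prok2 spread widely. On the other side G0s2, an inhibitor of triglyceride lipase, was at 59.7, 46.9 and 43.2 FPKM with PBS and 1.36, 2.18 and 2.44 FPKM with LPS (-4.09 ± 0.39). Tgfbi, a matrix protein induced by TGF-beta, went from 126, 138 and 260 FPKM to 14.4, 7.27 and 12.9 FPKM (-3.78 ± 0.30). Ednrb, a receptor for endothelins, was at 45.4, 51.9 and 204 FPKM with PBS and 8.98, 2.79 and 5.02 FPKM with LPS (-3.703 ± 0.51, and -3.02 without PBS replicate 3). PBS replicate 3 was the highest library for Tgfbi and Ednrb.

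Genes of ribosome biogenesis were mostly called higher. Of 50 ribosome biogenesis genes, 48 were called higher and none lower, with a median change of 1.28, against 24.8% higher and a median of -0.11 over all genes. Ncl, which encodes nucleolin and acts in the processing of ribosomal RNA, was at 88.6, 60.4 and 49.1 FPKM in the PBS libraries and at 268, 302 and 333 FPKM in the LPS libraries. The change of Ncl was 2.21 ± 0.22 (adjusted p = 1.3e-05 by limma), and its lowest LPS library lay well above its highest PBS library. Npm1, a nucleolar histone chaperone and the most abundant member, went from 215, 168 and 166 FPKM to 566, 666 and 673 FPKM (1.797 ± 0.17). Nop58, a core protein of box C/D small nucleolar particles, rose by 1.82 ± 0.22, and Rrp1b, a nucleolar regulator, by 2.01 ± 0.19. Under the settings tried, between 48 and 50 of the 50 were called higher. The genes of the ribosome's own proteins, 84 cytosolic ribosomal protein genes, made up 14.9% of the summed FPKM with PBS and 15.6% with LPS, in ranges that overlapped, and Rps9, at 547, 464 and 592 FPKM against 514, 536 and 553 FPKM, was among the most even genes above 100 FPKM.

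Aminoacyl-tRNA synthetases, which load amino acids onto tRNAs, were called higher in 21 of 23 cases and lower in none (median 1.08). The share higher was 91.3%, against 24.8% over all genes, and all 16 alternative settings gave 21. Yars, for tyrosine, went from 15.1, 12.5 and 11.7 FPKM to 33.6, 48.8 and 43.3 FPKM, a change of 1.598 ± 0.15. Lars, for leucine, rose by 1.51 ± 0.13, Cars, for cysteine, by 1.48 ± 0.21 and Aars, for alanine, by 1.44 ± 0.21. In each of these 4 genes the groups were apart, and the lowest LPS library was replicate 1.

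Of 30 genes for the synthesis of serine, folate-borne carbon units and nucleotides, 26 were called higher and 1 lower (median 1.29). The shares were 86.7% and 3.33%, against 24.8% and 37.4% over all genes. Shmt1 and Shmt2, the cytosolic and mitochondrial enzymes that move a carbon unit from serine to folate, rose by 2.72 ± 0.21 and 2.52 ± 0.22. Shmt2 was at 33.4, 21.7 and 18.1 FPKM with PBS and at 108, 167 and 152 FPKM with LPS. Mthfd2, the mitochondrial folate enzyme that follows it, was at 12.5, 12.5 and 6.31 FPKM with PBS and at 51.6, 78.4 and 71.1 FPKM with LPS (2.61 ± 0.24, adjusted p = 7.46e-06 by limma). Psat1, an aminotransferase of serine synthesis, rose by 2.26 ± 0.25, and Pnp, the purine nucleoside phosphorylase and the most abundant member, by 1.57 ± 0.17. The summed level of the list was 578, 466 and 411 (PBS) and 1103, 1442 and 1309 (LPS) FPKM, without overlap. Srm, the spermidine synthase of the polyamine pathway, rose by 1.75 ± 0.21.

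Within the list of the unfolded protein and integrated stress responses, the largest rises were those of Asns, Chac1, Trib3 and Atf4, the last of these the transcription factor of amino acid shortage. The list as a whole had 9 of 31 members called higher and 4 lower (median 0.11), or 29% and 12.9%, against 24.8% and 37.4% over all genes. Asns, the asparagine synthetase and a target of Atf4, stood at 3.44, 2.91 and 1.24 FPKM with PBS and at 18.4, 41.02 and 30.4 FPKM with LPS (3.12 ± 0.29, adjusted p = 8.37e-06 by limma). Chac1, which degrades glutathione, was at 0.673, 0.554 and 0.384 FPKM with PBS and at 9.06, 10.99 and 15.4 FPKM with LPS. Trib3, a pseudokinase induced by Atf4, went from 0.627, 1.18 and 0.436 FPKM to 8.12, 11.7 and 15.5 FPKM. In Asns, Chac1 and Trib3 every LPS library lay above every PBS library. Atf4 itself rose from 128 to 304 FPKM (1.27 ± 0.17). Slc1a4, a transporter of neutral amino acids, changed by 3.05 ± 0.19 and was among the 20 largest rises. Several chaperones of the endoplasmic reticulum, Hspa5, Calr, Canx, Pdia3 and Hsp90b1, were not called. Hspa5, the most abundant of the list, was at 457, 774 and 274 FPKM with PBS and 616, 732 and 696 FPKM with LPS in overlapping groups, and was called higher (0.94) without PBS replicate 2. Pdia4, Xbp1 and the membrane sensors Ern1 and Eif2ak3 were called lower.

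Genes of DNA replication were called higher in most cases, while no gene of mitosis was. Of 45 replication and G1 genes, 28 were called higher and 5 lower (62.2% and 11.1%, median 0.81), against 24.8% and 37.4% over all genes. All 6 tested subunits of the Mcm2 to Mcm7 helicase, the ring that unwinds DNA, were called higher, and Mcm5 went from 8.61, 6.57 and 8.51 FPKM to 25.7, 50.1 and 34.8 FPKM (2.05 ± 0.23). The D-type cyclins, which drive cells through G1, moved in opposite directions. Ccnd2 was at 90.5, 56.3 and 39.7 FPKM with PBS and at 244, 331 and 316 FPKM with LPS, a change of 2.31 ± 0.29. Ccnd1 was at 33.03, 46.2 and 57.5 FPKM with PBS and at 2.03, 2.24 and 1.89 FPKM with LPS, a change of -3.897 ± 0.21 (adjusted p = 2.99e-07 by limma). Of 20 mitosis genes tested, none was called higher and 3 (15%) were called lower, Racgap1 (-1.04 ± 0.17), Kif23 (-0.63 ± 0.19) and Aurkb (-0.32 ± 0.12). Top2a, the most abundant of that list, was at 4.01, 6.68 and 4.34 FPKM with PBS and at 6.92, 7.404 and 6.98 FPKM with LPS, a difference of 0.46 ± 0.19 that did not pass the test (adjusted p = 0.0511 by limma) although the groups were apart, and that passed as higher under 4 of the 16 alternative settings, among them without PBS replicate 2 (0.65). The summed level of the 27 mitosis genes was 40.7, 66.4 and 51.5 (PBS) and 51.1, 48.7 and 42.4 (LPS) FPKM, low and overlapping. The call of Aurkb was lost under 9 of the 16 alternative settings, 5 of them the omission of a library (PBS replicate 2 or 3, or any LPS replicate, with -0.34 to -0.25), and 0 to 4 mitosis genes were called lower over those settings.

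The proteasome, which degrades tagged proteins and feeds peptides to MHC class I, had 36 of 46 subunits called higher and none lower (median 0.55). The share higher was 78.3%, against 24.8% over all genes. The rise was broad and small: 3 subunits passed 1 on the log2 scale. These were Psme2, a subunit of the interferon-induced activator, at 87.3, 84.9 and 57.4 FPKM with PBS and 140, 175 and 172 FPKM with LPS (1.09 ± 0.18), Psme3, its nuclear relative (1.06 ± 0.14), and the assembly chaperone Psmg2 (1.03 ± 0.17). Psmb4, the most abundant subunit, rose by 0.61 ± 0.12. Without wild-type LPS replicate 2 the count of subunits called higher was 25, and 42 were called after median of ratios scaling.

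**Figure D3:**
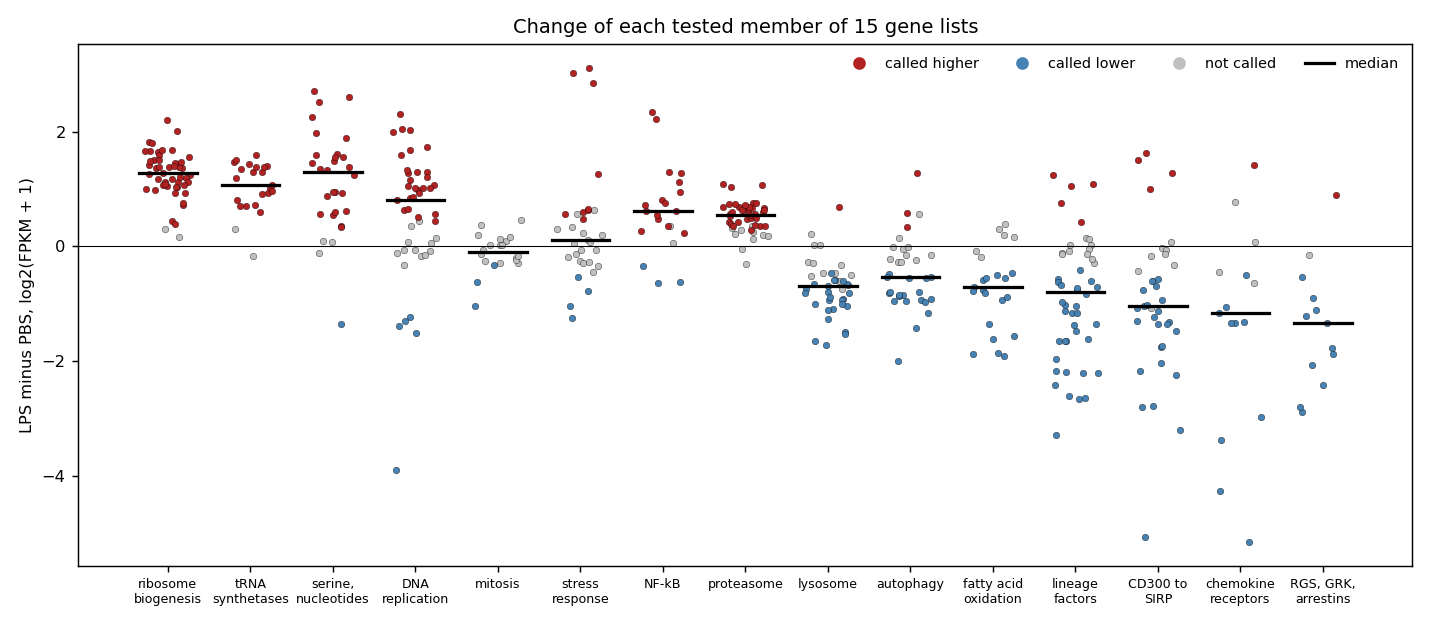
Change with LPS (vertical axis, LPS minus PBS in log2(FPKM + 1)) of each tested member of 15 gene lists (columns), coloured by limma call, with a bar at the median of each list; horizontal spread within a column carries no meaning. Medians run from 1.29 for serine and nucleotide synthesis and 1.28 for ribosome biogenesis to -1.34 for regulators of G protein signalling.

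In the NF-kB system 16 of 21 genes were called higher and 3 lower (76.2% and 14.3%, median 0.61), against 24.8% and 37.4% over all genes. The members that rose most were Traf1, a signalling adaptor (2.35 ± 0.16), Nfkbiz, the nuclear IkB protein needed for a second wave of genes (2.22 ± 0.23), Nfkbib (1.298 ± 0.15) and Map3k8, the kinase that couples NF-kB to ERK (1.28 ± 0.14). Nfkbia, the inhibitor IkB-alpha and the most abundant member, was at 230, 251 and 135 FPKM with PBS and 465, 419 and 418 FPKM with LPS. Among IRF and STAT factors, Janus kinases and SOCS inhibitors the calls were balanced, with 10 higher and 10 lower of 26. Each share was 38.5%, against 24.8% higher and 37.4% lower over all genes. Irf7, a driver of interferon genes, went from 77.02, 55.6 and 52.7 FPKM to 220, 237 and 214 FPKM (1.86 ± 0.19). Socs1, a feedback inhibitor of Janus kinases, rose by 1.898 ± 0.25, Irf1 by 1.67 ± 0.28 and Irf4 by 1.33 ± 0.27.

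Of 28 Toll-like receptors, co-receptors and adaptors, 4 were called higher and 9 lower (median -0.09), shares under the background in both directions. Tlr4 itself was at 18.3, 17.3 and 13.03 FPKM with PBS and at 6.799, 5.91 and 5.97 FPKM with LPS (-1.24 ± 0.19, adjusted p = 0.000234 by limma), with no overlap. Ticam2, which bridges Tlr4 to the interferon branch, went from 8.52, 7.67 and 14.4 FPKM to 2.24, 2.27 and 1.89 FPKM (-1.79 ± 0.18). Tlr13, the sensor of bacterial ribosomal RNA, fell by 2.77 ± 0.33, and Cd180, a Tlr4 relative of B cells and macrophages, by 1.74 ± 0.40. Cd14 was high in all 6 libraries, at 971, 1064 and 462 FPKM with PBS and 694, 588 and 496 FPKM with LPS, and was not called (adjusted p = 0.24 by limma), but was called lower (-0.79) without PBS replicate 3.

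Of 35 cell death and survival genes, 15 were called higher and 7 lower (42.9% and 20%), against 24.8% and 37.4% over all genes. Zbp1, a sensor of Z-form nucleic acid that can start necroptosis, went from 38.5, 32.4 and 18.5 FPKM to 95.2, 116 and 98.9 FPKM (1.81 ± 0.24). Mlkl, the membrane effector of necroptosis, rose by 1.57 ± 0.18. On the survival side, Cflar, an inhibitor of caspase-8, rose by 1.31 ± 0.18 and Bcl2a1a by 2.13 ± 0.33, while Mcl1, the most abundant survival gene of the list, was at 352, 383 and 308 FPKM with PBS and 180, 166 and 187 FPKM with LPS (-0.96 ± 0.12). Bcl2a1a has near-identical copies, so its share of the reads is uncertain. Costimulatory and checkpoint molecules had 10 of 25 called higher and 6 lower (40% and 24%), against 24.8% and 37.4% over all genes. Slamf1, a receptor that also binds bacteria, was at 1.35, 0.987 and 0.593 FPKM with PBS and 25.1, 23.9 and 19.4 FPKM with LPS (3.598 ± 0.15). Lag3 rose by 2.44 ± 0.28 and Tnfsf9, the ligand of 4-1BB, by 2.29 ± 0.35, whereas Vsir, the checkpoint VISTA, stood at 54.4, 64.7 and 122 FPKM with PBS and at 6.93, 4.95 and 5.77 FPKM with LPS (-3.48 ± 0.26).

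Central metabolic pathways held called genes in both directions. In the list of itaconate, nitric oxide and arginine enzymes 8 of 21 were called higher and 7 lower (38.1% and 33.3%). Over all genes the shares were 24.8% and 37.4%. Nos2, the inducible nitric oxide synthase, was at 2.86, 2.399 and 1.25 FPKM with PBS and at 121, 109 and 90.2 FPKM with LPS (5.11 ± 0.31). Slc7a2, the transporter that brings in arginine, rose by 2.14 ± 0.43, and Acod1, which makes itaconate, by 1.401 ± 0.30 from an already high 317, 293 and 114 FPKM. Arg1, the arginase that competes for the same substrate, was at 493, 561 and 192 FPKM with PBS and at 103, 47.04 and 56.4 FPKM with LPS (-2.51 ± 0.52, adjusted p = 0.00143 by limma).

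In glycolysis 7 of 22 genes were called higher and 7 lower, near the background in both directions. The rises included Pfkfb3, whose product makes the activator of phosphofructokinase, from 18.1, 15.8 and 11.8 FPKM to 136, 88.7 and 87.3 FPKM (2.68 ± 0.28), and Slc16a1, a lactate transporter (2.204 ± 0.17). Hk2 rose by 1.49 ± 0.19 and Ldha, lactate dehydrogenase A and the most abundant member, by 1.02 ± 0.16. Pfkfb4, the sister of Pfkfb3, went from 8.27, 6.82 and 5.41 FPKM to 0.934, 0.771 and 1.09 FPKM (-2.01 ± 0.18). Gapdh, chosen after its values were seen, is listed at 3.18 FPKM with PBS in these files and has near-identical copies in the genome, so its value is uncertain.

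The TCA cycle list had 6 of 28 called higher and 6 lower (21.4% each, median 0.02), against 24.8% and 37.4% over all genes. Idh1, the cytosolic NADP-dependent isocitrate dehydrogenase, stood at 29.5, 34.8 and 95.3 FPKM with PBS and at 3.45, 2.07 and 3.02 FPKM with LPS (-3.63 ± 0.39), with PBS replicate 3 far above the other PBS libraries. Its mitochondrial relative Idh2 changed by -0.85 ± 0.27, and lost its call in the fit on the 6 wild-type libraries alone. Idh3a, of the NAD-dependent enzyme in the cycle, rose by 0.895 ± 0.14. Cytosolic malate dehydrogenase Mdh1 changed by -0.98 ± 0.15 and mitochondrial Mdh2 by 0.402 ± 0.15, and the latter call was lost in 5 of the 16 alternatives, including those without PBS replicate 3 (0.26), LPS replicate 2 (0.29) and LPS replicate 3 (0.44).

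Of 23 fatty acid oxidation genes, 17 were called lower and none higher (median -0.71). The share lower was 73.9%, against 37.4% over all genes. Cpt1a, the gate for long-chain fatty acids into mitochondria, was at 23.1, 19.8 and 27.97 FPKM with PBS and 5.21, 5.48 and 5.86 FPKM with LPS (-1.91 ± 0.21, adjusted p = 2.31e-05 by limma). Acox3, a peroxisomal oxidase, fell by 1.87 ± 0.19, Hadh by 1.85 ± 0.31 and Acaa2, a thiolase, by 1.62 ± 0.22. In all 4 genes PBS replicate 3 was the highest library, and 17 members were called lower without it too.

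Of 22 cholesterol synthesis and uptake genes, 5 were called higher and 4 lower (22.7% and 18.2%), against 24.8% and 37.4% over all genes. The count called higher was 9 without PBS replicate 1 and 8 after median of ratios scaling. Idi1, the isopentenyl diphosphate isomerase, was among the rises and went from 6.41, 3.92 and 2.67 FPKM to 17.5, 22.8 and 18.1 FPKM (1.99 ± 0.24). Among 24 genes of efflux, LXR targets and lipid handling, 13 were called lower and 2 higher (54.2% and 8.33%, median -0.83). Abcg1, a cholesterol exporter, was at 14.4, 13.1 and 18.3 FPKM with PBS and 2.501, 2.57 and 3.104 FPKM with LPS (-2.12 ± 0.19), and Lipa, the lysosomal lipase, fell by 1.93 ± 0.34. Ch25h, which makes 25-hydroxycholesterol and is an interferon-induced gene, went from 2.17, 1.85 and 1.56 FPKM to 21.4, 26.99 and 19.1 FPKM (3.03 ± 0.15). Apoe was among the most abundant genes, at 1517, 836 and 3743 FPKM with PBS and 2740, 2109 and 1658 FPKM with LPS, and was not called, except as higher (0.91) without PBS replicate 3.

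Eicosanoid genes, which make and break down prostaglandins and leukotrienes, were called lower in 10 of 19 cases and higher in 5. The shares were 52.6% and 26.3%, against 37.4% and 24.8% over all genes. Ptgs2, the inducible cyclooxygenase, was at 13.7, 12.6 and 7.02 FPKM with PBS and 62.2, 54.5 and 45.6 FPKM with LPS (2.23 ± 0.27), while Ptgs1, the constitutive enzyme, went from 17.3, 22.9 and 39.1 FPKM to 4.92, 3.48 and 3.84 FPKM (-2.37 ± 0.24). Ptgis, the prostacyclin synthase, fell by 2.82 ± 0.29 and Alox5ap, the activator of 5-lipoxygenase, by 2.22 ± 0.22. Ltc4s, the leukotriene C4 synthase, was at 82.8, 43.8 and 375 FPKM with PBS and 22.6, 16.4 and 18 FPKM with LPS, a change of -2.50 ± 0.56 that was -1.63 without PBS replicate 3 and -3.16 without PBS replicate 2.

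Of 32 metal and redox genes, 8 were called higher and 13 lower (25% and 40.6%), near the shares over all genes, 24.8% and 37.4%. Mt2, a metallothionein that binds zinc, was at 256, 659 and 134 FPKM with PBS and at 3260, 2946 and 2095 FPKM with LPS (3.26 ± 0.43, and 3.87 without PBS replicate 2), and Mt1 rose by 2.13 ± 0.29. Slc40a1, the iron exporter ferroportin, was at 6.43, 6.91 and 1.99 FPKM with PBS and at 0.111, 0.0805 and 0.204 FPKM with LPS (-2.31 ± 0.32). The ferritin chains separated: Fth1 was at 5202, 9350 and 2486 FPKM with PBS and 9783, 11031 and 7902 FPKM with LPS, and Ftl1 at 2381, 5521 and 3528 FPKM with PBS and 1697, 1382 and 1470 FPKM with LPS. The groups of Fth1 overlapped and its call (adjusted p = 0.0457 by limma) was lost under 7 of the 16 alternatives, among them the omission of any library but PBS replicate 2 (0.44 without PBS replicate 3 and 0.83 to 1.07 for the others), and both chains have near-identical copies in the genome. Srxn1, a target of the oxidative stress factor Nrf2, fell by 2.05 ± 0.35.

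**Figure D4:**
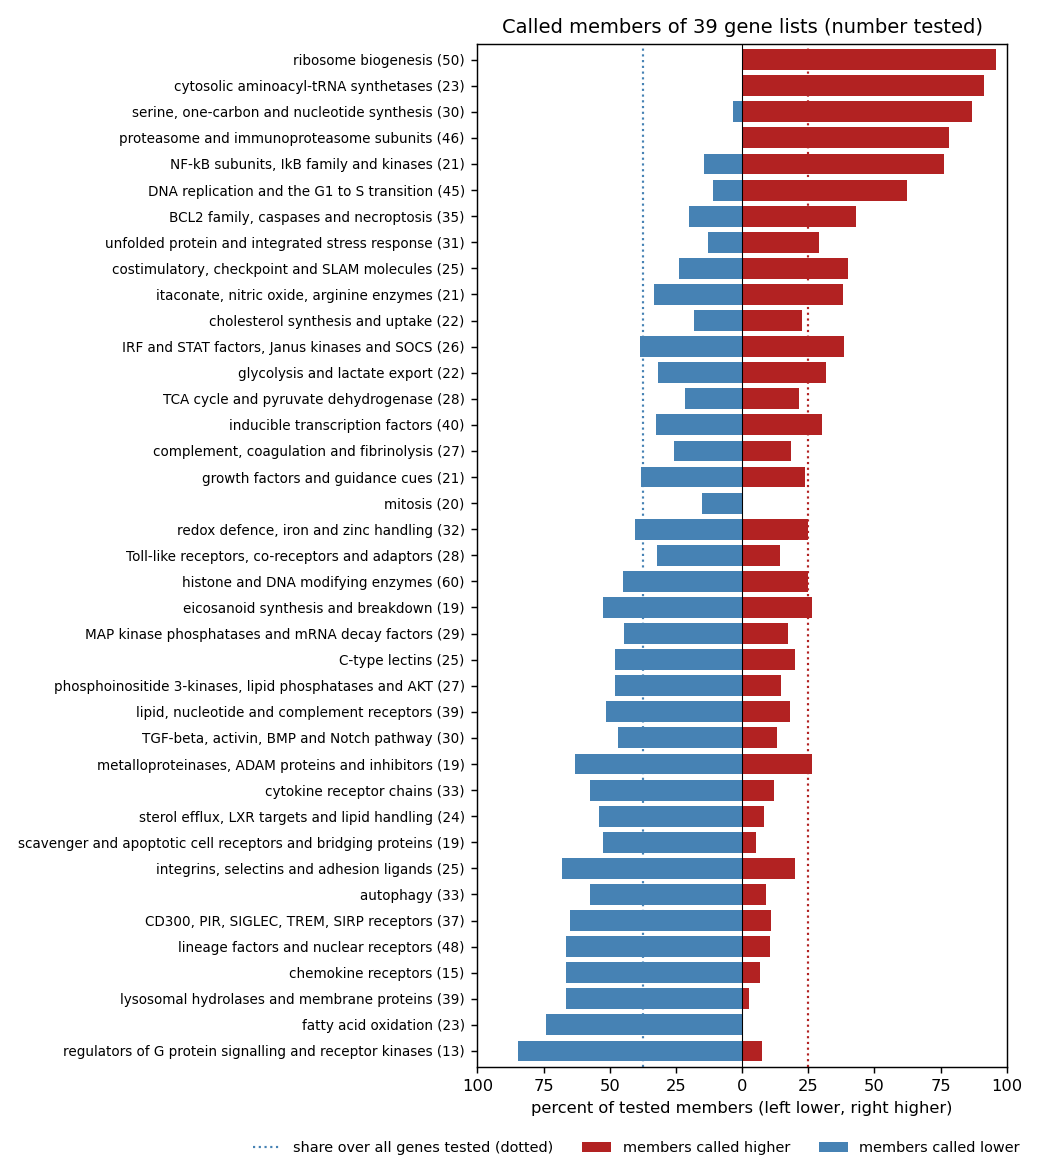
Percent of the tested members of each of 39 gene lists (rows, with the number tested) called higher (right) or lower (left) with LPS by limma; dotted lines mark the shares over all 9841 genes, 24.8% higher and 37.4% lower. Ribosome biogenesis is at the top with 96% higher, and regulators of G protein signalling are at the bottom with 84.6% lower.

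The receptor lists were called lower more often than higher, as were all genes tested (37.4% lower and 24.8% higher). The share called lower was 48% for the C-type lectins, 51.3% for the lipid, nucleotide and complement receptors, 57.6% for the cytokine receptor chains, 64.9% for the CD300 to SIRP receptors and 66.7% for the chemokine receptors. Neutrophil and monocyte markers moved with them, 9 of 10 and 7 of 8 called lower with the sums given above, and their part in these falls was not tested. Of 15 chemokine receptors, 10 were called lower and 1 higher (median -1.16). Cxcr4, the receptor for Cxcl12, was at 114, 128 and 74.8 FPKM with PBS and 6.41, 9.78 and 11.7 FPKM with LPS (-3.37 ± 0.24). Ccr1 fell by 2.98 ± 0.29 from 166 FPKM. The falls of Cxcr2 (-5.15 ± 0.55) and Ccr2 (-4.26 ± 0.17) are at the same time those of a neutrophil and a monocyte marker. Cxcr5, the receptor for Cxcl13 and the most abundant member of the list, was not called, at 120, 92.8 and 87.03 FPKM with PBS and 92.1, 104 and 121 FPKM with LPS, in overlapping groups. With only genes of at least 5 FPKM tested, 6 chemokine receptors were called lower.

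Receptors for lipids, nucleotides and complement fragments had 20 of 39 called lower and 7 higher (median -0.71). The sphingosine 1-phosphate receptors, which steer cells towards blood and lymph, were called lower in 3 cases. S1pr1 was at 86.5, 49.9 and 76.98 FPKM with PBS and at 4.29, 5.41 and 5.94 FPKM with LPS (-3.51 ± 0.25, adjusted p = 1.37e-06 by limma), S1pr4 fell by 2.802 ± 0.25 and S1pr5 by 2.57 ± 0.35. Ltb4r1, the receptor for leukotriene B4, fell by 2.799 ± 0.38. Fpr2, a formyl peptide receptor and the most abundant of the list, went up from 165, 191 and 69.5 FPKM to 328, 317 and 301 FPKM (1.27 ± 0.33). The proteins that end or shape such signals fell as well, 11 of 13 tested RGS proteins, receptor kinases and arrestins called lower (median -1.34). That share was 84.6%, against 37.4% over all genes. Rgs2 went from 7.87, 9.46 and 21.1 FPKM to 0.777, 0.662 and 0.742 FPKM (-2.88 ± 0.27). Arrb1, beta-arrestin 1, was at 7.85, 10.3 and 27.5 FPKM with PBS and 1.07, 1.001 and 1.03 FPKM with LPS (-2.803 ± 0.33), and Arrb2 fell by 2.07 ± 0.25.

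Cytokine receptor chains were called lower in 19 of 33 cases and higher in 4 (median -0.63). The exceptions were led by Il2ra, the alpha chain of the interleukin-2 receptor, at 7.62, 4.83 and 3.91 FPKM with PBS and 34.3, 43.4 and 41.9 FPKM with LPS (2.695 ± 0.28), and Il15ra, which presents interleukin-15 (2.48 ± 0.28). Il1r2, the decoy receptor for interleukin-1, fell by 2.79 ± 0.37 and Lifr by 1.75 ± 0.22. The common gamma chain Il2rg, at means of 165 FPKM with PBS and 154 FPKM with LPS, was not called, though it was lower (-0.26) and called without PBS replicate 3.

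C-type lectins and paired immunoglobulin-like receptors held 3 of the 20 largest falls, Clec7a, Clec4n and Cd300lb. Clec7a, the beta-glucan receptor Dectin-1, was at 114, 94.7 and 80.4 FPKM with PBS and at 2.72, 1.52 and 2.78 FPKM with LPS (-4.87 ± 0.30). Clec4n, the mannan receptor Dectin-2, was at 77.1, 117 and 46.8 FPKM with PBS and at 2.199, 1.501 and 1.64 FPKM with LPS (-4.78 ± 0.30), while Clec4d, the most abundant lectin of the list, fell by 0.96 ± 0.29. Over the 25 lectins tested 12 were called lower and 5 higher. Of 37 CD300, paired immunoglobulin-like, SIGLEC, TREM and SIRP receptors, 24 were called lower and 4 higher (median -1.03). Cd300lb, an activating receptor of myeloid cells, was at 34.2, 37.3 and 43.9 FPKM with PBS and at 0.173, 0.133 and 0.214 FPKM with LPS (-5.06 ± 0.18, adjusted p = 6.97e-08 by limma). Cd300a, an inhibitory member, fell by 3.203 ± 0.26. Tyrobp, the adaptor DAP12 through which many of these receptors signal, was at 866, 1152 and 1220 FPKM with PBS and 417, 400 and 339 FPKM with LPS (-1.47 ± 0.15).

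Scavenger and apoptotic cell receptors had 10 of 19 called lower and 1 higher (52.6% and 5.26%), against 37.4% and 24.8% over all genes. Among those lower were Lrp1 (-1.88 ± 0.28), Stab1 (-1.71 ± 0.25) and Cd5l, a macrophage protein that is also in the large macrophage marker list (-1.45 ± 0.33). Integrins, selectins and their ligands had 17 of 25 called lower and 5 higher (68% and 20%, median -0.91). Itgb2, the common beta chain of leukocyte integrins and the most abundant member, was at 471, 478 and 669 FPKM with PBS and 248, 210 and 204 FPKM with LPS (-1.27 ± 0.17). Selplg, the selectin ligand PSGL-1, fell by 2.21 ± 0.27. Itga6 fell by 2.22 ± 0.47, and by 1.60 without PBS replicate 3. Itgb8, which activates TGF-beta, was a rise among these falls, at 0.377, 0.359 and 0.0775 FPKM with PBS and 6.97, 2.87 and 3.64 FPKM with LPS (2.05 ± 0.30).

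Vim, Myo1f and Cass4, which act in the cytoskeleton and cell shape, fell. They are given as single genes, since cytoskeleton genes were not counted as a list. Vim, the intermediate filament vimentin, was at 830, 1346 and 593 FPKM with PBS and 85.1, 112 and 103 FPKM with LPS (-3.12 ± 0.28). Myo1f, a myosin of leukocytes, fell by 3.65 ± 0.29 and Cass4, an adhesion scaffold, by 4.09 ± 0.29.

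Of 27 phosphoinositide 3-kinase, lipid phosphatase and AKT genes 13 were called lower and 4 higher (48.1% and 14.8%). The shares over all genes were 37.4% and 24.8%. Inpp5d, the phosphatase SHIP1, went from 33.3, 34.5 and 34.9 FPKM to 10.7, 12.4 and 12.1 FPKM (-1.47 ± 0.11). Pik3ap1, the adaptor BCAP, rose by 0.82 ± 0.21. MAP kinase phosphatases and mRNA decay factors had 13 of 29 called lower and 5 higher (44.8% and 17.2%). Dusp6, a phosphatase of ERK, was at 25.2, 35.4 and 37.4 FPKM with PBS and 2.67, 2.698 and 2.93 FPKM with LPS (-3.14 ± 0.16), and Btg2, an antiproliferative factor, fell by 1.83 ± 0.13. Zc3h12a, the ribonuclease Regnase-1 that degrades cytokine mRNAs, rose by 1.95 ± 0.15, and Zfp36, tristetraprolin, was at means of 298 FPKM with PBS and 233 FPKM with LPS and was not called, except as lower (-0.57) without PBS replicate 3. In the TGF-beta, BMP and Notch list 14 of 30 were called lower and 4 higher (46.7% and 13.3%). Tgfb1 was at 126, 124 and 114 FPKM with PBS and 55.99, 64.7 and 62.8 FPKM with LPS (-0.98 ± 0.11). Tgfb2 was at 4.88, 3.93 and 66.5 FPKM with PBS and 0.305, 0.215 and 0.231 FPKM with LPS, so its change of -3.32 ± 0.73 was -2.11 without PBS replicate 3, which alone was high, and -3.99 without PBS replicate 2. The receptor chain Eng, endoglin, rose by 1.61 ± 0.21.

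**Figure D5:**
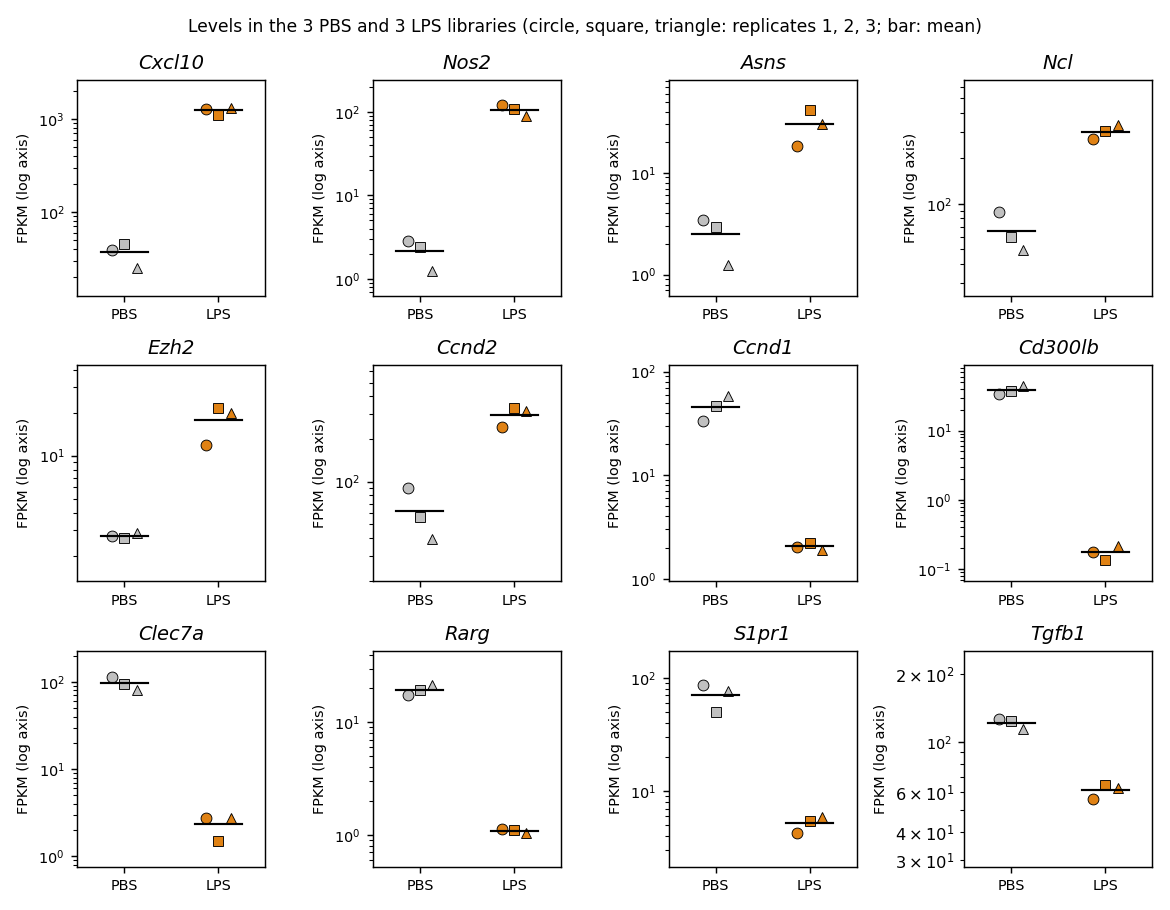
FPKM (vertical axes, log scale) of 12 genes in the 3 PBS and 3 LPS wild-type libraries, with symbols for replicates 1 to 3 and a bar for the group mean. The groups are apart in all 12 genes, and the distance runs from Cd300lb (-5.06) and Nos2 (5.11) to Tgfb1 (-0.98).

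Inducible transcription factors were called in both directions, 12 higher and 13 lower of 40 (30% and 32.5%), against 24.8% and 37.4% over all genes. Batf2, an interferon-induced factor, was at 3.35, 4.35 and 2.28 FPKM with PBS and 36.99, 48.9 and 34.4 FPKM with LPS (3.26 ± 0.28), and Prdm1, Blimp-1, rose by 2.08 ± 0.31. Fos, an early gene of the AP-1 family, was at 49.5, 81.03 and 16.7 FPKM with PBS and 4.59, 4.398 and 4.42 FPKM with LPS (-2.94 ± 0.44, and -3.56 without PBS replicate 3). Cebpb, the most abundant of the list, was at means of 564 FPKM with PBS and 424 FPKM with LPS and was not called, except as lower (-0.61) without PBS replicate 3. Lineage factors and nuclear receptors were mostly lower, 32 of 48 against 5 higher (66.7% and 10.4%, median -0.79). Rarg, a retinoic acid receptor, was at 17.4, 19.5 and 21.6 FPKM with PBS and 1.14, 1.09 and 1.04 FPKM with LPS (-3.29 ± 0.15, adjusted p = 1.69e-07 by limma). Lyl1, a factor of blood cell development, fell by 2.64 ± 0.20 and Klf4, of monocyte differentiation, by 2.62 ± 0.28. Klf2, the most abundant member, stood at 756, 809 and 602 FPKM with PBS and 293, 296 and 258 FPKM with LPS (-1.34 ± 0.19).

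Among 60 histone and DNA modifying enzymes, 27 were called lower and 15 higher (45% and 25%), against 37.4% and 24.8% over all genes. Ezh2, the methyltransferase of the Polycomb complex, was at 2.76, 2.65 and 2.87 FPKM with PBS and 11.9, 21.4 and 19.8 FPKM with LPS (2.28 ± 0.22). Of the class IIa histone deacetylases, which shuttle out of the nucleus, Hdac5 and Hdac7 fell and Hdac9 rose, Hdac5 from 5.27, 4.204 and 8.602 FPKM to 0.388, 0.653 and 0.538 FPKM (-2.16 ± 0.20), Hdac7 by -1.59 ± 0.18 and Hdac9 by 1.47 ± 0.22. Prmt1, an arginine methyltransferase and the most abundant member, rose by 1.46 ± 0.16.

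Of 39 lysosomal hydrolases and membrane proteins, 26 were called lower and 1 higher (66.7% and 2.56%, median -0.70), against 37.4% and 24.8% over all genes. The summed level was 11408, 13254 and 25457 (PBS) and 10491, 7589 and 8538 (LPS) FPKM, where PBS replicate 3 stood above the others. Lyz2 alone, given below, made up most of this sum in every library. Without that library 24 were called lower, and the markers of large macrophages, also highest in it, moved with this list in a part that was not tested. Ctsd, cathepsin D, was at 504, 1120 and 1023 FPKM with PBS and 290, 236 and 233 FPKM with LPS (-1.72 ± 0.28). Psap, the precursor of the saposins, fell by 1.64 ± 0.18 and Ctsc, cathepsin C, by 1.499 ± 0.15. Lyz2, lysozyme of myeloid cells and the gene with the highest mean in the PBS libraries, was at 7564, 8037 and 19205 FPKM with PBS and 7480, 4919 and 5801 FPKM with LPS, and its call (adjusted p = 0.0381 by limma) was lost under 8 of the 16 alternatives, among them without PBS replicate 3 (-0.38), LPS replicate 2 (-0.68) or LPS replicate 3 (-0.80). Of 33 autophagy genes, 19 were called lower and 3 higher (57.6% and 9.09%, median -0.54). Gabarap, which coats autophagosomes, was at 323, 370 and 315 FPKM with PBS and 172, 184 and 166 FPKM with LPS (-0.94 ± 0.12), whereas Tax1bp1, a cargo receptor that also restrains NF-kB, rose by 1.28 ± 0.14.

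Metalloproteinases, ADAM proteins and their inhibitors had 12 of 19 called lower and 5 higher (63.2% and 26.3%, median -1.16). Adam8 was at 62.1, 90.4 and 38.7 FPKM with PBS and 4.904, 5.04 and 5.24 FPKM with LPS (-3.34 ± 0.31). Mmp8, neutrophil collagenase, went from 32.9, 59.5 and 15.3 FPKM to 0.771, 1.59 and 1.43 FPKM (-3.85 ± 0.54), and Mmp9 is in the neutrophil marker list. Mmp19 was at 60.6, 273 and 26.5 FPKM with PBS and 7.05, 6.26 and 6.59 FPKM with LPS (-3.34 ± 0.63, -2.43 without PBS replicate 2 and -4.09 without PBS replicate 3), and Timp2, an inhibitor of these enzymes, fell by 1.39 ± 0.38, or by 0.80 without PBS replicate 3. Complement, coagulation and fibrinolysis genes had 5 of 27 called higher and 7 lower (18.5% and 25.9%). Over all genes the shares were 24.8% and 37.4%. Cfb, complement factor B, was at 199, 235 and 106 FPKM with PBS and 627, 557 and 466 FPKM with LPS (1.67 ± 0.29). Thbd, the anticoagulant thrombomodulin, fell from 3.15, 7.61 and 9.32 FPKM to 0.242, 0.1301 and 0.297 FPKM (-2.55 ± 0.32). Among growth factors and guidance cues 5 of 21 were called higher and 8 lower (23.8% and 38.1%), near the shares over all genes. The colony-stimulating factors Csf3 and Csf1 moved in opposite directions. Csf3, the granulocyte factor, was at 1.03, 0.417 and 0.358 FPKM with PBS and 41.5, 53.2 and 33.9 FPKM with LPS (4.78 ± 0.22). Csf1, the macrophage factor, was at 82.7, 84.5 and 60.1 FPKM with PBS and 7.47, 7.88 and 7.996 FPKM with LPS (-3.11 ± 0.22, adjusted p = 1.55e-06 by limma). Edn1, endothelin 1, went from 1.46, 0.706 and 0.632 FPKM to 25.9, 18.9 and 20.5 FPKM (3.57 ± 0.24).

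A few genes moved across the floor of detection. With under 0.5 FPKM in every library of a group and at least 5 FPKM in every library of the other, 3 genes were turned on and 7 turned off. Ptx3, a soluble pattern recognition protein, was at 0.4602, 0.417 and 0.111 FPKM with PBS and at 114, 28.02 and 29.9 FPKM with LPS, where replicate 1 was highest (5.15 ± 0.55, and 4.51 without LPS replicate 1). Alpl, an alkaline phosphatase that can dephosphorylate LPS, was at 0.457, 0.269 and 0.263 FPKM with PBS and 6.85, 9.53 and 9.08 FPKM with LPS. On the other side, after Cd300lb, were Rab7b, a late endosomal GTPase, at 9.12, 15.3 and 10.97 FPKM with PBS and 0.327, 0.111 and 0.234 FPKM with LPS, and Slc9a3r2, a scaffold protein of the membrane, at 8.65, 8.92 and 14.2 FPKM with PBS and 0.279, 0.366 and 0.155 FPKM with LPS.

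In absolute amount, the largest gain of mean FPKM was that of Saa3. This acute phase protein, also made by macrophages, took 1.898% of the summed FPKM with PBS and 4.51% with LPS, at 7856, 8834 and 3406 FPKM and 18281, 18444 and 13064 FPKM. Lcn2, which binds bacterial siderophores, was at 273, 191 and 84.9 FPKM with PBS and 1687, 1681 and 1120 FPKM with LPS (3.15 ± 0.45). Wfdc17 rose by 0.84 ± 0.17 from 1637 FPKM. Ccl5 rose from a mean of 191 to 1034 FPKM (2.63 ± 0.36), while Cxcl13, a chemokine for B cells, measured at 1684, 660 and 572 FPKM with PBS and 1900, 2189 and 1600 FPKM with LPS, overlapped between groups and lost its call in 5 of the 16 alternatives (0.94 without PBS replicate 2, 0.83 without PBS replicate 3, 1.121 without LPS replicate 1 and 1.02 without LPS replicate 2). Slpi, a protease inhibitor at 2942, 4415 and 3636 FPKM with PBS and 4767, 4785 and 4138 FPKM with LPS, was high in both groups and not called. Among the 10 largest losses, besides Lyz2 and Ftl1, were S100a8 and S100a9, Crip1 (-1.73 ± 0.14), the actin binder Tmsb4x (-0.88 ± 0.12) and Vim. At the steady end, Rab5c (118, 108 and 111 FPKM with PBS, 112, 121 and 110 FPKM with LPS) and Mob1a (135, 127 and 132 FPKM and 130, 130 and 135 FPKM) overlapped closely.

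Called genes also lay in runs along the chromosomes. In GENCODE M21 positions on GRCm38, held by 99.2% of the genes tested, 16 runs of at least 4 neighbouring tested genes were called the same way with a change of at least 1 on the log2 scale, 2 higher and 14 lower. Over all genes tested, 690 were called higher and 1356 lower by at least 1, and no number of runs to set these against was computed. The longest held 7 S100 genes at chr3:90514435-93564643, S100a13, S100a4, S100a6, S100a8, S100a9, S100a11 and S100a10, with changes from -3.91 to -1.01, and S100a8 and S100a9 among them are neutrophil markers. S100a6, another calcium-binding member, was at 745, 437 and 486 FPKM with PBS and 114, 134 and 178 FPKM with LPS. The CD300 cluster at chr11:114890041-115133992 had 6 genes lower, from -5.06 for Cd300lb to -1.118 for Cd300ld3, whose groups overlapped and whose call was lost in 9 of the 16 alternatives. Its change was -0.58 without PBS replicate 2, -1.19 without PBS replicate 3 and between -1.24 and -1.02 without an LPS library. Further falls lay in the TREM cluster at chr17:48149126-48275360 (Trem1, Trem3, Treml4 and A530064D06Rik), in the paired receptors at chr7:3836812-4063204 (Pira2, Gm14548, Lilra6 and Lair1) and around Clec7a and Olr1 at chr6:129461591-129598775. The 2 runs of rises were both on chromosome 11. The first held the interferon-induced GTPases Tgtp1, Tgtp2 and Ifi47 with Olfr56 at chr11:48978889-49135387, with changes from 1.95 to 2.80, and the other Slfn5, Slfn8 and Slfn9 with Nle1 at chr11:82900768-83020810, from 1.02 to 1.45, where Slfn5 lost its call without LPS replicate 1 (0.87). Members of such clusters resemble each other in sequence, and the authors' counting could split their reads, so single values within them are uncertain.

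Short sequence motifs were counted in the promoters of the genes with large changes. RefSeq windows of 300 bases, 250 before to 50 after the start of a gene on GRCm38.p6, were at hand for 7730 of the genes tested, for 84 of the 116 that rose by at least 2 on the log2 scale and for 219 of the 291 that fell by as much, and the first listed window of a gene was used. On either strand, the kappa B motif GGNNTTTCC was in 16.7% of the windows of genes that rose, in 7.31% of those that fell and in 6.36% of all tested. The interferon-stimulated response element GAAANNGAA was in 22.6%, 8.68% and 7.85%. The AP-1 motif TGANTCA was in 20.2% of those that rose and 11% of those that fell, against 5.05% of all. The PU.1 motif GAGGAAGT, of the myeloid lineage factor, was in 9.13% of the windows of genes that fell, 3.57% of those that rose and 3.58% of all. The CRE motif TGACGTCA was in 3.57%, 0.457% and 3.48%, the STAT motif TTCCNGGAA in 2.38%, 0.457% and 1.33%, and the E2F motif (TTTGGCGC or TTTCCCGC) in 4.76%, 0.457% and 3.21%, for genes that rose, genes that fell and all tested. Over all 27025 genes with a window the shares were 5.72% for kappa B, 8.57% for the interferon element, 7.93% for AP-1, 3.28% for PU.1, 1.88% for CRE, 1.15% for STAT and 1.63% for E2F. Motifs may overlap, a match is a description of the letters and no sign of binding, and no test was made. Over all genes called, rather than those with the largest changes, kappa B was in 7.73% of the windows of genes called higher and 5.74% of those called lower, the interferon element in 9.99% and 6.72%, AP-1 in 4.84% and 4.44%, and PU.1 in 3.5% and 4.16%. Windows poor in CpG, with at most 5, were common at both ends, 33.3% of the genes that rose and 33.3% of those that fell against 9.42% of all tested.

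Some lists held a motif in a larger share of windows than all tested genes, in lists called mostly higher and in lists called mostly lower. E2F letters were in 30.6% of 36 replication windows, and the kappa B letters in 37.5% and the AP-1 letters in 25% of 16 NF-kB windows. Of the 29 windows of CD300 to SIRP receptors, a list mostly called lower, 20.7% held kappa B, 27.6% the interferon element and 24.1% PU.1. Windows with at most 5 CpG were 82.8% of these, against 9.42% of all tested. PU.1 was also in 12.9% of 31 lysosome windows and in 11.4% of 44 ribosome biogenesis windows, a list mostly called higher, against 3.58% of all tested. AP-1 was in 23.8% of 21 C-type lectin windows, of which 76.2% had at most 5 CpG. A further pair of motifs was added after the values were seen. The Atf4 element TGATGNAA was in 33.3% of 15 tRNA synthetase windows, those of Yars, Aars, Tars, Iars and Gars, and in 9.52% of the genes that rose by at least 2, against 2.24% of all tested and 4.06% of all windows. It was in 14.8% of 27 stress response windows and 2.27% of 44 ribosome biogenesis windows. Of 27 windows for serine, one-carbon and nucleotide synthesis, a list mostly called higher, 0% held it. The E-box CACGTG was in 35.5% of 31 lysosome windows, 26.7% of the tRNA synthetase windows, 21.6% of 37 windows of lineage factors and nuclear receptors and 20.5% of 44 ribosome biogenesis windows, against 10.8% of all tested and 7.24% of all windows. It was in 8.33% of the genes that rose by at least 2 and in 7.76% of those that fell by as much. The Atf4 element was in 2.28% of the genes that fell by at least 2.

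The stretches below show these motifs in genes picked as examples and not by a rule. Changes not described above are given with the stretch. They end at the base before the first RefSeq start, run 5' to 3' on the strand of the gene, and the capitals mark the matches to the motifs. Cxcl10, the chemokine whose window holds an interferon element, a kappa B match and an AP-1 match in that order, is shown over 220 bases at chr5:92348890-92349109 on the minus strand. Its level was 39.6, 45.6 and 25.3 FPKM with PBS and 1276, 1109 and 1319 FPKM with LPS (5.07 ± 0.45).
Cxcl10: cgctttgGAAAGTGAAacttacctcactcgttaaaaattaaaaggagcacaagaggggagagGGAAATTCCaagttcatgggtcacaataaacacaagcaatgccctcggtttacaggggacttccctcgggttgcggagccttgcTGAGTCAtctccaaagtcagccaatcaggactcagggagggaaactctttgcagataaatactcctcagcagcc
Cxcl1, a neutrophil chemokine, has a pair of kappa B matches at chr5:90891095-90891244 on the plus strand, and its level was 86.9, 45.1 and 25.7 FPKM with PBS and 615, 1104 and 537 FPKM with LPS (3.91 ± 0.46). Tnfaip3, the ubiquitin-editing inhibitor A20, has an AP-1 match, an E-box and a pair of kappa B matches at chr10:19015411-19015560 on the minus strand, and went from 32.4, 37.4 and 15.5 FPKM to 309, 230 and 236 FPKM (3.22 ± 0.28).
Cxcl1: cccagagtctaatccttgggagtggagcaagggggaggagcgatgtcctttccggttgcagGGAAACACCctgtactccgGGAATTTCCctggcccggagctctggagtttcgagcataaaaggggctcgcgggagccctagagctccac
Tnfaip3: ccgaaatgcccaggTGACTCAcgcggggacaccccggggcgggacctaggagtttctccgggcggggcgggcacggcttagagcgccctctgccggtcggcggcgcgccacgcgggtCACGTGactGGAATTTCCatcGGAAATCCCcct
Asns, described with the stress response, carries the Atf4 element 23 to 16 bases before the start at chr6:7693210-7693359 on the minus strand. Mcm5, of the replication helicase, carries an E2F and a CRE match at chr8:75109359-75109508 on the plus strand.
Asns: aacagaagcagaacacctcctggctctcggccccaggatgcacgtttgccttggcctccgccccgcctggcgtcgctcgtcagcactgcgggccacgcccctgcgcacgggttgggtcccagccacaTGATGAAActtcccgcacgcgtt
Mcm5: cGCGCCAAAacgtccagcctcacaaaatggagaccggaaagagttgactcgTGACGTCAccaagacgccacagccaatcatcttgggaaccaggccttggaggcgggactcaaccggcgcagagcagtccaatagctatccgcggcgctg
For the falls, Cd300ld of the CD300 cluster, at 41.1, 52.8 and 64.4 FPKM with PBS and 6.98, 5.81 and 7.04 FPKM with LPS (-2.801 ± 0.15), and Ptgs1 each carry a PU.1 match, at chr11:114989887-114990036 on the minus strand and chr2:36230276-36230425 on the plus strand.
Cd300ld: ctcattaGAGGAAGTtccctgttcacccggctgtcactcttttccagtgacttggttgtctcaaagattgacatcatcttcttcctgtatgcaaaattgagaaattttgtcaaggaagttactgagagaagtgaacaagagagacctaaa
Ptgs1: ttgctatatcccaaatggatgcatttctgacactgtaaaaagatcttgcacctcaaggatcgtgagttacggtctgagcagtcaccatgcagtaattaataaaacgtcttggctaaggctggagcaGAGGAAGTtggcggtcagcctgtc

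Against the knockout, few genes were called as differing in their LPS response. With 3 libraries a group, a gene that was not called cannot be read as responding alike. The knockout libraries were taken by their agent labels, though some of their titles or descriptions speak of wild type. A test of the difference of the LPS responses called 4 of the 9841 genes (0.0406%), all of them lower in wild type relative to the knockout, while 946 passed an unadjusted p under 0.05. The count rested on single libraries: it was 0 without wild-type PBS replicate 1 or without any LPS replicate, 3 without PBS replicate 2 and 49 without PBS replicate 3. The 4 are Egr1, Egr2, Csrnp1 and Hbegf, the first pair early growth response factors, the third an early response nuclear protein and the last a growth factor that binds heparin. Hbegf lies under the level set for named genes and was chosen after its values were seen. Egr1 was at 27.8, 23.0 and 25.5 FPKM with PBS and 8.98, 9.98 and 8.95 FPKM with LPS in wild type, and at 14.5, 14 and 10.4 FPKM with PBS and 13.8, 13.9 and 18.6 FPKM with LPS in the knockout. In wild type the groups of Egr1 were apart, and in the knockout they overlapped.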

How the data were processed

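RNA of peritoneal lavage cells was measured in 12 libraries, 3 each of wild-type PBS, wild-type LPS, knockout PBS and knockout LPS, grouped by the agent labels. The values the authors deposited are taken as FPKM: they are not whole, and per the submitters' processing notes TopHat, Cufflinks, HTSeq and DESeq were used with GRCm38, with no version or role given. Read depth is not in these files, so no counting interval is given. Of 21878 rows per library, 27 whose symbol had become a date were left out, and 5228 of the rest were at 0 in all 12 libraries.

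Testing was limited to genes whose 12-library mean reached 1 FPKM and used log2(FPKM + 1) with limma 3.58.1 in R 4.3.3 (trend and robust options, 4 group means, residual df 8), with Benjamini-Hochberg adjustment over 9841 genes and a threshold of 0.05. The test was also tried on simulated data, whose levels and spreads came from the real data, and no result given here rests on that trial. Alternatives were another pseudocount, filter, scaling, set of libraries, a replicate block and the omission of each library.

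Named genes were the 20 largest rises and falls with non-overlapping groups, up to 4 called members and the highest member of each list, the 10 largest gains and losses in FPKM, up to 12 genes turned on or off, up to 10 steady genes of at least 100 FPKM, members of neighbour runs and called differences from the knockout, with at least 5 FPKM in a group for the first and last kind; predicted genes were left out of the first. Exceptions are stated in the text, and some items are not reported here. Members and lists were chosen with earlier results of these data known, and lists are described by counts and medians only. Promoter windows come from RefSeq (GRCm38.p6) and were matched by symbol. Figures were drawn with matplotlib 3.10.9.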

Additional observations from a re-analysis of the deposited data

Results flagged for a closer look

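The LPS response differed between wild type and the lactoferrin knockout in 4 genes by the test of the difference in limma. For Egr1 the wild-type response less that of the knockout was -1.59 (SE 0.20, adjusted p = 0.0344), from -1.36 in wild type and 0.24 in the knockout. Egr2 gave -1.33 (SE 0.19, adjusted p = 0.0446), with responses of -2.16 and -0.83. Its levels were 6.26, 5.39 and 4.82 FPKM with PBS and 0.462, 0.403 and 0.461 FPKM with LPS in wild type, against 2.31, 1.78 and 1.35 FPKM and 0.450, 0.596 and 0.665 FPKM in the knockout. Csrnp1 gave -1.15 (SE 0.16, adjusted p = 0.0446), with responses of -0.47 and 0.68. It was at 16, 14.9 and 13.5 FPKM with PBS and 9.95, 10.1 and 11.1 FPKM with LPS in wild type, and at 8.04, 6.30 and 6.35 FPKM and 10.8, 13.3 and 10.7 FPKM in the knockout. Hbegf gave -1.39 (SE 0.18, adjusted p = 0.0344). Its wild-type response of -0.22 did not pass (adjusted p = 0.149 by limma), and that of the knockout was 1.17, from 0.495, 0.566 and 0.553 FPKM with PBS to 2.04, 2.86 and 2.52 FPKM with LPS. In all 4 genes the wild-type PBS libraries lay above the knockout PBS libraries.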

How the results depend on the processing

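Over 16 alternatives none of the 6123 calls turned its direction where it was called again. For 304 named genes, 4755 of 4821 recomputed values kept the call, 53 in 10 genes lost it and 13 gained it. No value changed sign in a gene called in either fit, and sign changes of genes called in neither were counted as kept. Many named genes were chosen as called members or large changes of the main fit. Leaving out a wild-type library gave 5342 to 6007 calls, 2079 to 2422 higher and 3232 to 3686 lower, 575 to 798 higher and 1203 to 1467 lower by at least 1 on the log2 scale, and 0 to 49 differences from the knockout. With a mean of at least 5 FPKM, where 6644 genes were tested, 2239 were called lower, 863 by at least 1 on the log2 scale; the lower counts were 12 for autophagy, 6 for chemokine receptors, 13 for lipid and nucleotide receptors, 15 for CD300 to SIRP receptors 7 for metalloproteinases, 15 for histone and DNA modifying enzymes, 8 for phosphoinositide 3-kinases and 0 for mitosis, since fewer genes were tested. A fit of the 6 wild-type libraries alone gave 5378 calls, 2132 higher and 3246 lower. In that fit 3 genes of the TCA cycle were called lower, in place of 6. A pseudocount of 5 FPKM gave 415 higher and 630 lower by at least 1 and 2 differences from the knockout. That last count was 1 without a filter, 1 with a mean of at least 5 FPKM, 8 after median of ratios scaling, 12 after upper quartile scaling and 7 without trend and robust options; the cause was not tested. Genes turned on numbered 7 and turned off 28 with under 1 FPKM as the low bound, and 1 and 1 with at least 10 FPKM as the high bound. Whether same-numbered PBS and LPS libraries belong together is not stated in the labels. In wild type their deviations from the group means correlated at -0.15, 0.138 and 0.026, and those of differently numbered libraries at -0.195 to 0.207. With 3 libraries a group these values cannot settle whether libraries are paired. The fit with a replicate block gave 5680 calls, 2242 higher and 3438 lower, and 3 differences from the knockout. Read depth is unknown, so low genes carry an unstated counting error.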
